A study of Homo sapiens with 15 samples.

Results

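The TGF-beta and YAP genes described here are 9 of the 18417 genes measured on 15 arrays of the series. They were taken by name as the ligands TGFB1 and TGFB2, the receptors TGFBR1 and TGFBR2, the TGF-beta-induced gene TGFBI, and the YAP target genes CCN1, CCN2, ANKRD1 and AMOTL2. Each had 1 probeset with 1 gene symbol on the array, so no choice between probesets was needed. Every array holds RNA labelled for an Affymetrix whole-transcript gene array, and the 15 arrays form 5 groups of 3. RNA of exosomes, small vesicles released into the medium, came from JINB8 cells, a CD47-deficient mutant of the Jurkat T cell line, or from the parent Jurkat cells (JK, CD47+). The 3 other groups are HUVEC, endothelial cells of the human umbilical vein, kept for 6 h with JINB8 exosomes, kept for 6 h with JK exosomes, or untreated. Conditioned medium of the T cell lines, grown last in low human serum, was concentrated, its exosomes were isolated with an ExoQuick kit, and HUVEC received them in EGM2 medium. The labels name no mock preparation from medium without cells, so untreated HUVEC lacked exosomes and every other part of the precipitate alike. Nothing in the labels tells whether the 3 replicates of a group came from different cultures; a p-value here reflects only how these samples scatter, and that scatter can be technical.

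TGF-beta is secreted in a latent form and, once released, brings together a type II receptor (TGFBR2) and a type I receptor (TGFBR1), which phosphorylates SMAD proteins that enter the nucleus with SMAD4. YAP and TAZ are co-activators held in the cytoplasm by the kinases of the Hippo pathway; in the nucleus they act through TEAD factors on genes such as CCN1, CCN2, ANKRD1 and AMOTL2. The pathways meet on shared genes, CCN2 among them, and in endothelium TGF-beta is known for its part in vessel maturation and in endothelial-to-mesenchymal transition.

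Promoter sequence is shown for 4 genes, because they differ in the letters a TEAD factor is known to bind and because they include the 2 members with the largest decreases and the 2 brightest members. The lines give the 250 bases before the annotated start, 5′ to 3′ on the gene's own strand, from RefSeq on GRCh38.p14. TGFB2 is at chr1:218345086-218345335 on the plus strand, TGFBI at chr5:136028738-136028987 on the plus strand, CCN2 at chr6:131951373-131951622 on the minus strand and ANKRD1 at chr10:90921088-90921337 on the minus strand. Capitals mark GGAATG or its reverse complement CATTCC.
TGFB2: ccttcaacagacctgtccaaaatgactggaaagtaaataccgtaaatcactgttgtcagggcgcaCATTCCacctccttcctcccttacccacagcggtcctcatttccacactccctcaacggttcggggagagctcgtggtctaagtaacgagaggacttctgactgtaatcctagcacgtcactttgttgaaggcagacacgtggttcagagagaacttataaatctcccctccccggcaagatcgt
TGFBI: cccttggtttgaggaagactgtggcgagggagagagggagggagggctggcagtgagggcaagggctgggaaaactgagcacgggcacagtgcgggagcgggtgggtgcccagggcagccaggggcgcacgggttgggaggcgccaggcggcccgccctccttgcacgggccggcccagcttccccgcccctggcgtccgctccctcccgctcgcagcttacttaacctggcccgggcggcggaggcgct
CCN2: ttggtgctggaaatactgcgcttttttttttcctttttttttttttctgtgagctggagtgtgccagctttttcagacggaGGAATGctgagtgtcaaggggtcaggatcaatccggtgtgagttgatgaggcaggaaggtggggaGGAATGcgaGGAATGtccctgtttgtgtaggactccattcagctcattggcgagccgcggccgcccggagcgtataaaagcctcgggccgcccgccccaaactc
ANKRD1: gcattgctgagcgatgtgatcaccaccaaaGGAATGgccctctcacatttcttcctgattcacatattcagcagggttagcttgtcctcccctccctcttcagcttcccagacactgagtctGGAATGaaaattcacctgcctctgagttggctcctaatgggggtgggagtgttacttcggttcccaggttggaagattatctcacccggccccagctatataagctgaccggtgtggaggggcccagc

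Motifs were counted on both strands of windows of 300 bases, 250 before and 50 after the start. The TEAD letters stood 3 times in CCN2, with first bases at -169, -104 and -95 counted from the start base as 0, and 2 times in ANKRD1, at -220 and -128. TGFB2 had them once, at -185, and TGFBI and TGFB1 had no match. Of 35097 such windows of all genes, 14% held the letters at least once, 1.37% at least 2 times and 0.128% at least 3 times. For AMOTL2, 1 of 2 windows and 1 of 8 TGFBR1 windows held 1 match each, and the 2 TGFBR2 windows held none. CAGAC, part of the SMAD site, with its reverse complement GTCTG, stood 2 times in TGFB2, once in CCN2 and 2 times in ANKRD1, where the match at -132 shared its last base with the TEAD match at -128. It was also held by 4 of 8 TGFBR1 windows and 1 of 2 AMOTL2 windows, and by 45.2% of all windows. TGANTCA, the AP-1 letters, stood once in ANKRD1, at -195, and in 1 of 2 TGFBR2 windows, at -6, and was held by 7.71% of windows. In all, 8 of the 9 genes had a window listed, 17 windows in all, and CCN1 had none. These matches describe letters in a window and not bound sites.

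**Figure D1:**
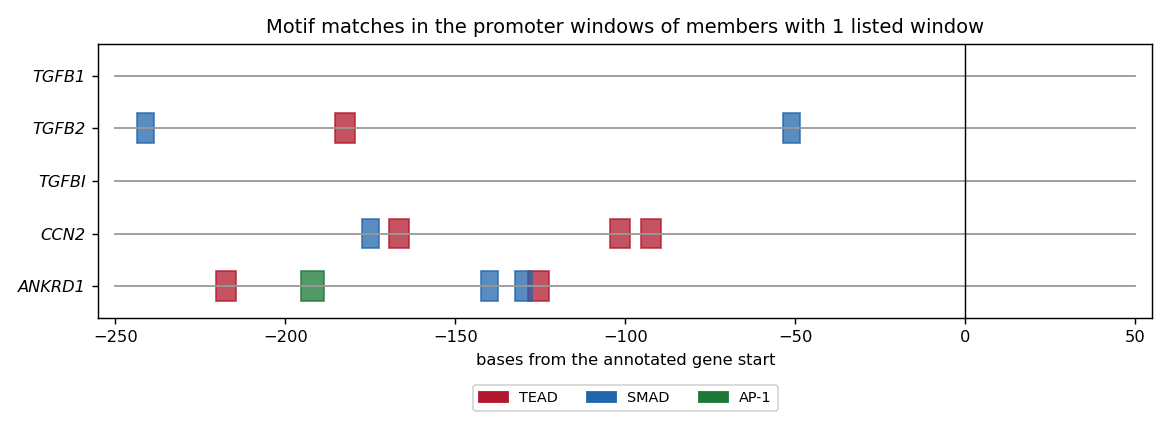
Motif matches in the 5 members with 1 listed promoter window, drawn against the distance in bases from the annotated start (vertical line). CCN2 carries 3 TEAD matches and ANKRD1 carries 2, while TGFB1 and TGFBI carry none of the 3 motifs.

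Before the values are read, features of the libraries need stating. The deposited array medians averaged 5.12 ± 0.01 in JINB8 exosome RNA, 5.11 ± 0.03 in JK exosome RNA, 5.11 ± 0.02 in JINB8-treated HUVEC and 5.14 ± 0.03 in JK-treated HUVEC, against 6.97 ± 0.06 in untreated HUVEC (log2 signal, SD, n = 3 each). These medians are over all probesets of an array. The median change of all genes as deposited was -1.71 with JINB8 exosomes and -1.68 with JK exosomes. Treatment and a separate processing of the untreated arrays cannot be told apart. For this reason comparisons with untreated HUVEC were made on values quantile-normalized over the 9 HUVEC arrays, which show a gene's place relative to the others, with deposited, median-centred and cyclic loess values beside them. Among the 6 treated arrays, JK replicate 3 lay on the side of JINB8 replicates 1 and 2, and JINB8 replicate 3 on the side of JK replicates 1 and 2, along the first principal component, which held 44.2% of their variance. Deviations of these 2 arrays from the mean of the 6 correlated at only -0.03 to 0.08 with replicates 1 and 2 of the other source. With those of their own source they correlated at -0.36 to -0.10. The separation along the component goes against the labels, so the changes of the 9 genes in HUVEC and the list counts are also given without these 2 arrays, a choice made after their values were seen. CD47 read 4.58, 4.67 and 4.94 in JINB8 exosome RNA against 4.72, 4.69 and 4.72 in JK exosome RNA, values that overlap and so do not separate the 2 sources. Of 12 endothelial markers, 11 were among the brightest 25% of genes in each HUVEC group, and 3 were in each exosome RNA group. Of 14 T cell markers, 14 were higher in exosome RNA than in treated HUVEC, and 7 were among its brightest 25%. In HUVEC none of the 14 was, and their median percentile per array was 21.0 to 23.0 with JINB8 exosomes, 18.2 to 22.9 with JK exosomes and 19.98 to 20.4 in untreated cells.

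**Figure D2:**
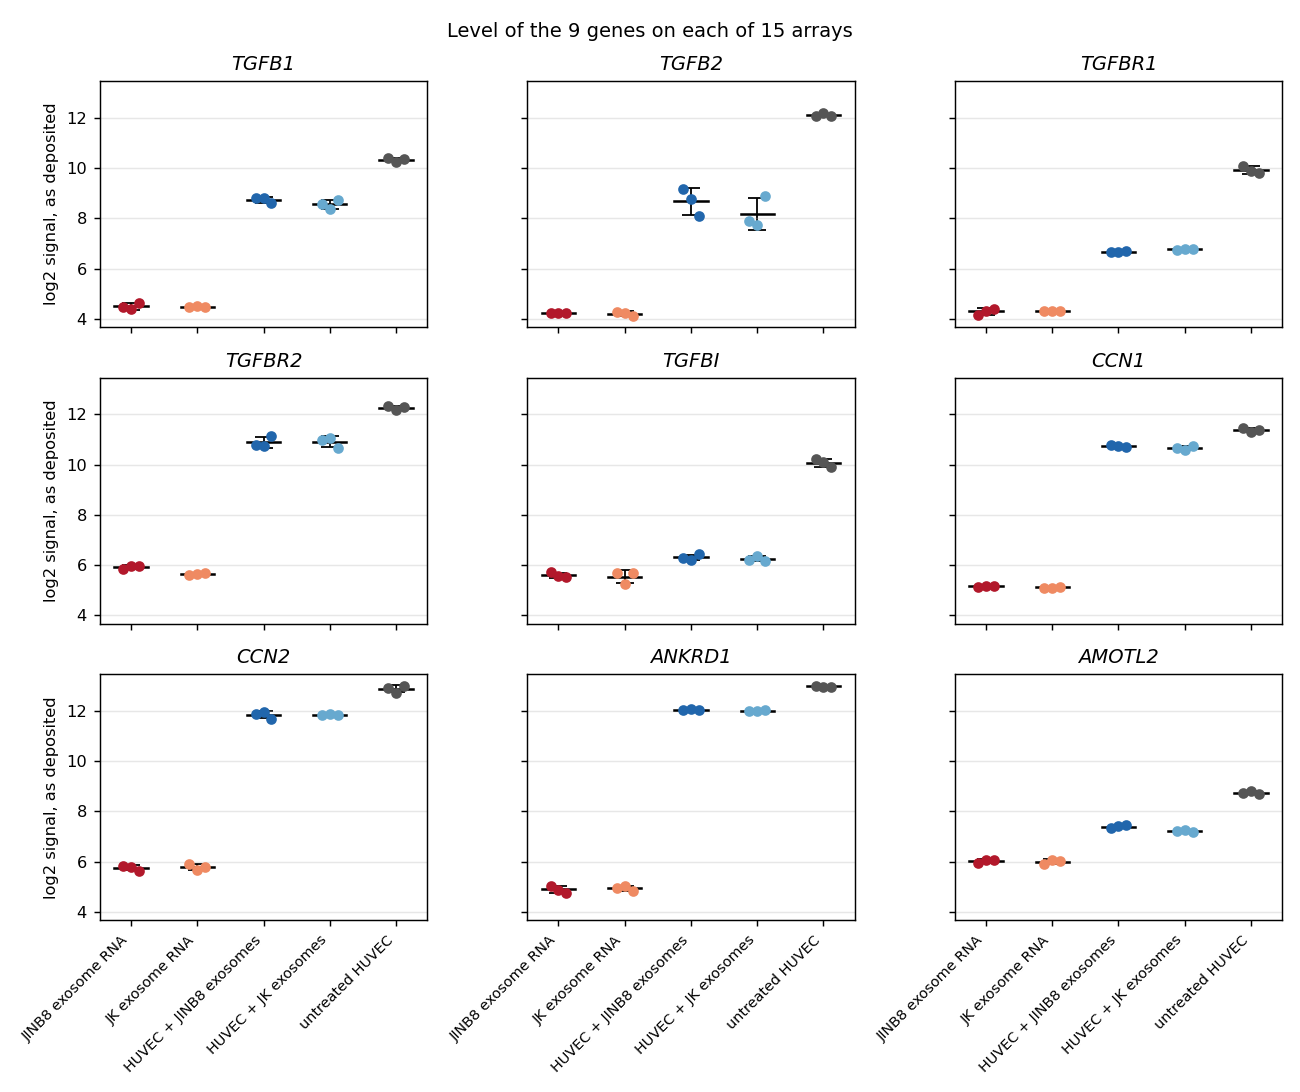
Deposited log2 signal of the 9 genes (vertical axes) on each of 15 arrays, with group mean and SD (bars). For every gene shown the untreated HUVEC points are highest and the exosome RNA points lowest. The untreated arrays also have the higher median over all probesets, 6.97 against about 5.1 in the 4 other groups.

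TGFB2, TGFBR1 and TGFBI RNA was lower in HUVEC kept with either exosome preparation than in untreated HUVEC, by 3.1-fold to 6.02-fold on the quantile scale, and these 3 differences passed the test on all 4 scalings. On the quantile scale over all 9 HUVEC arrays TGFB1 and TGFBR2 differed by at most 0.31 log2 units, CCN1 was higher relative to other genes, and CCN2 and ANKRD1, among the brightest genes of every HUVEC array, did not pass. With JINB8 exosomes 2 of the 9 genes rose, 3 fell and 4 did not pass (median log2 change -0.16, against 0.02 over all genes), and with JK exosomes 1 rose, 4 fell and 4 did not pass (median -0.16, against 0.02). Of all genes, 49.3% were called with JINB8 exosomes (26% higher and 23.3% lower) and 48.6% with JK exosomes (26.2% higher and 22.4% lower), so the number of members called is near the background. The split of the members follows the scaling: with either preparation median centring gave 5 higher, 3 lower and 1 not passing (medians 0.45 with JINB8 and 0.26 with JK exosomes, against 0.13 and 0.10 over all genes), and the deposited values gave all 9 lower (medians -1.39 and -1.53, against -1.71 and -1.68). Cyclic loess gave 1 higher, 3 lower and 5 not passing with JINB8 and 1, 4 and 4 with JK exosomes. Without replicate 3 of both treated groups 1 was higher, 4 were lower and 4 did not pass with either preparation. On the other scalings 99.3%, 56.9% and 51.8% of genes were called with JINB8 exosomes (as deposited, median centring, cyclic loess) and 99.5%, 54.6% and 50.7% with JK exosomes; without replicate 3 of both treated groups the shares were 47.3% and 44.6%. Both comparisons share the 3 untreated arrays. In cell RNA of this kind, fewer cells of a type and less RNA per cell cannot be told apart.

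TGFB2 (chr1:218345336-218444619 on GRCh38.p14) encodes a TGF-beta ligand and showed the largest decrease of the 9 genes with JK exosomes on the quantile scale. On that scale it read 9.65, 9.24 and 8.59 in JINB8-treated HUVEC and 8.39, 8.28 and 9.37 in JK-treated HUVEC, against 11.15, 11.38 and 11.27 in untreated HUVEC. All 6 treated arrays lay below the untreated ones, and the treated arrays differed among themselves more than those of any other member. The log2 change was -2.11 ± 0.29 with JINB8 exosomes (SE, n = 3, adjusted p = 0.000117) and -2.59 ± 0.29 with JK exosomes (adjusted p = 2.97e-05). Without replicate 3 of both treated groups it was -1.81 ± 0.13 (adjusted p = 7.6e-06) and -2.91 ± 0.13 (adjusted p = 7.98e-07). As deposited the changes were -3.44 and -3.94, after median centring -1.60 and -2.16, and by cyclic loess -2.11 and -2.60. In rank by brightness among 18417 genes TGFB2 stood at 1044 to 2631 in JINB8-treated and 1362 to 3301 in JK-treated cells, against 137 to 186 in untreated cells.

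TGFB1 (chr19:41330323-41353922) encodes the most widely studied TGF-beta ligand. It read 9.27, 9.27 and 9.09 in JINB8-treated and 9.07, 8.92 and 9.20 in JK-treated HUVEC, against 9.32, 9.34 and 9.46 in untreated HUVEC on the quantile scale. The treated values all lay below the untreated ones, by little. The change was -0.16 ± 0.09 with JINB8 exosomes, which did not pass (adjusted p = 0.172), and -0.31 ± 0.09 with JK exosomes (adjusted p = 0.0174). The JK call was lost without JK replicate 2 (-0.24, adjusted p = 0.0741), without untreated replicate 3 (-0.27, adjusted p = 0.0606) and after median centring (0.0091, adjusted p = 0.955), so no direction is given for TGFB1. With JINB8 exosomes median centring turned the sign as well (0.24, adjusted p = 0.0944). Leaving out replicate 3 of both treated groups gave -0.10 ± 0.09 (adjusted p = 0.372) and -0.38 ± 0.09 (adjusted p = 0.00819).

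TGFBR1 (chr9:99103647-99154192), the type I receptor kinase, fell in both treatments with little spread. It read 7.25, 7.22 and 7.26 in JINB8-treated and 7.25, 7.30 and 7.35 in JK-treated HUVEC, against 9.01, 8.90 and 8.89 in untreated HUVEC. Treated and untreated values are far apart, and the treated ones lie close together. The log2 change was -1.69 ± 0.07 with JINB8 exosomes (3.22-fold, adjusted p = 3.3e-08) and -1.63 ± 0.07 with JK exosomes (3.1-fold, adjusted p = 4.04e-08). The changes without replicate 3 of both treated groups were -1.68 and -1.64. Its brightness rank was 6005 to 6103 and 5750 to 6015 in the treated groups, against 1882 to 2075 in untreated cells.

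TGFBR2 (chr3:30606356-30694142), the type II receptor that binds the ligand, showed no change that passed on the quantile scale. It read 11.23, 11.10 and 11.54 in JINB8-treated and 11.40, 11.48 and 11.09 in JK-treated HUVEC, against 11.50, 11.40 and 11.54 in untreated HUVEC. The groups overlap, and the changes of -0.19 ± 0.13 (95% interval -0.47 to 0.09, adjusted p = 0.242) and -0.16 ± 0.13 (-0.44 to 0.12, adjusted p = 0.329) did not pass. Without replicate 3 of both treated groups the JINB8 change was -0.31 ± 0.09 and passed (adjusted p = 0.0192), and the JK change was -0.04 ± 0.09 (adjusted p = 0.733). After median centring both were positive, 0.45 and 0.42, and passed (adjusted p = 0.0073 and 0.0108), so the direction of TGFBR2 depends on the scaling.

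TGFBI (chr5:136028988-136063818) encodes a secreted matrix protein named for its induction by TGF-beta. It read 6.88, 6.83 and 6.99 in JINB8-treated and 6.75, 6.92 and 6.75 in JK-treated HUVEC, against 9.15, 9.16 and 9.004 in untreated HUVEC. The treated values cluster tightly and lie far below the untreated ones. The log2 change was -2.21 ± 0.09 with JINB8 exosomes (4.62-fold, adjusted p = 1.42e-08) and -2.30 ± 0.09 with JK exosomes (4.93-fold, adjusted p = 1.01e-08). As deposited the changes were -3.77 and -3.83, after median centring -1.94 and -2.04, and without replicate 3 of both treated groups -2.23 and -2.25 on the quantile scale. TGFBI went to rank 6781 to 7272 in JINB8-treated and 6997 to 7526 in JK-treated cells, against 1642 to 1887 in untreated cells.

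**Figure D3:**
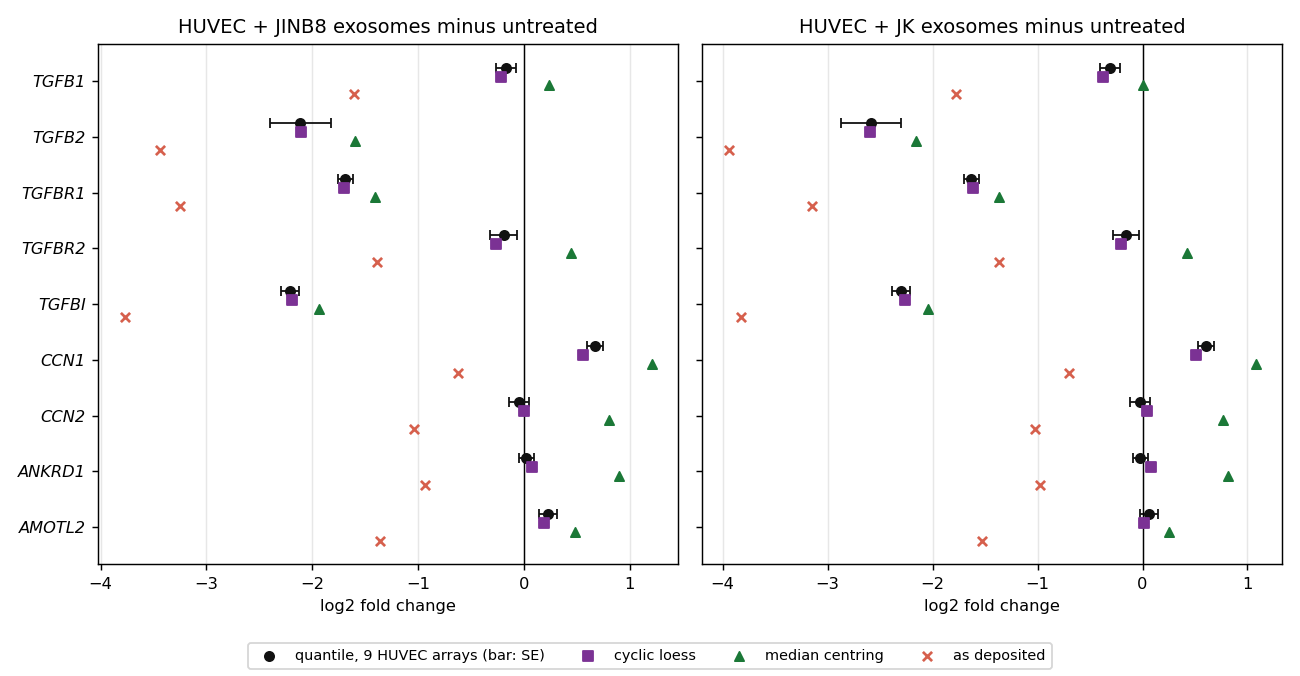
Log2 fold change of the 9 genes against untreated HUVEC (horizontal axis) with JINB8 exosomes (left) and JK exosomes (right) on 4 scalings of the same arrays; bars are the SE on the quantile scale. TGFB2, TGFBR1 and TGFBI are below 0 on every scaling, while CCN1, CCN2, ANKRD1 and AMOTL2 are below 0 as deposited and above 0 after median centring.

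Among the YAP targets, CCN1 (chr1:85580761-85583950), which encodes a secreted matricellular protein of the CCN family, read 11.23, 11.10 and 11.16 in JINB8-treated and 11.08, 11.03 and 11.16 in JK-treated HUVEC, against 10.46, 10.46 and 10.55 in untreated HUVEC on the quantile scale. All treated arrays lay above the untreated ones. The log2 change was 0.68 ± 0.08 with JINB8 exosomes (adjusted p = 3.31e-05) and 0.60 ± 0.08 with JK exosomes (adjusted p = 7.85e-05). As deposited the sign was the other way, -0.62 and -0.70, where the median gene changed by -1.71 and -1.68, while cyclic loess gave 0.56 and 0.51. On leaving out replicate 3 of both treated groups they were 0.67 and 0.57 on the quantile scale, and both passed (adjusted p = 0.000252 and 0.000805). By rank CCN1 stood at 167 to 202 in JINB8-treated and 183 to 223 in JK-treated cells, against 406 to 442 in untreated cells.

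CCN2 (chr6:131948176-131951372), a matricellular protein induced by both pathways, and ANKRD1 (chr10:90912096-90921087), an ankyrin-repeat protein first known from heart muscle, were at the top of every HUVEC array. CCN2 read 12.22, 12.24 and 12.02 in JINB8-treated and 12.15, 12.19 and 12.21 in JK-treated HUVEC, against 12.24, 12.03 and 12.35 in untreated HUVEC, and the groups overlap. ANKRD1 read 12.35, 12.36 and 12.38 in JINB8-treated and 12.32, 12.28 and 12.36 in JK-treated HUVEC, against 12.39, 12.35 and 12.28 in untreated HUVEC, which overlap as well. No change passed on the quantile scale. CCN2 changed by -0.05 ± 0.10 with JINB8 exosomes (adjusted p = 0.724) and by -0.02 ± 0.10 with JK exosomes (adjusted p = 0.866). ANKRD1 changed by 0.02 ± 0.07 with JINB8 exosomes (adjusted p = 0.813) and by -0.02 ± 0.07 with JK exosomes (adjusted p = 0.831). With replicate 3 of both treated groups left out the changes of CCN2 were 0.02 and -0.03 and those of ANKRD1 0.01 and -0.04. Quantile normalization sets the values at the top of an array by rank, and CCN2 ranked 24 to 43, 26 to 30 and 17 to 42 in JINB8-treated, JK-treated and untreated cells, and ANKRD1 15 to 17, 16 to 21 and 14 to 21. As deposited, with the shift of all genes included, CCN2 changed by -1.04 with JINB8 and -1.02 with JK exosomes, and ANKRD1 by -0.94 and -0.97, and all 4 changes passed (adjusted p = 3.28e-08 to 2.5e-07). Median centring gave changes of the other sign that also passed, 0.80 and 0.76 for CCN2 (adjusted p = 3.86e-05 and 6.62e-05) and 0.90 and 0.81 for ANKRD1 (adjusted p = 1.98e-06 and 5.76e-06), so no direction is given for either gene.

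AMOTL2 (chr3:134355345-134375417) encodes an angiomotin-like protein that binds YAP and is itself a YAP target. It read 7.84, 7.93 and 7.96 in JINB8-treated and 7.74, 7.81 and 7.70 in JK-treated HUVEC, against 7.55, 7.79 and 7.72 in untreated HUVEC. The JINB8-treated values lay above all untreated ones, and the JK-treated ones overlapped them. The change was 0.23 ± 0.08 with JINB8 exosomes (adjusted p = 0.0436) and 0.06 ± 0.08 with JK exosomes (adjusted p = 0.58, and 0.08 with adjusted p = 0.508 without replicate 3 of both treated groups). The JINB8 call sits at the threshold: it was lost by cyclic loess (0.19, adjusted p = 0.0626), without replicate 3 of both treated groups (0.20, adjusted p = 0.119), among the 6 compared arrays alone (0.23, adjusted p = 0.0663), and on leaving out any one of 7 of the 9 HUVEC arrays (0.16 to 0.26, adjusted p = 0.0523 to 0.141), all except untreated replicate 2 and JK replicate 3. Median centring gave 0.48 with JINB8 exosomes (adjusted p = 0.000317) and 0.26 with JK exosomes (adjusted p = 0.0197), and both passed. As deposited both changes were negative, -1.36 and -1.53, and both were less negative than the median gene.

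HUVEC given JINB8 exosomes were set against HUVEC given JK exosomes on the deposited values, whose array medians are alike. The source lines differ in CD47. Its part cannot be told apart from other differences between the lines or their preparations. None of the 9 genes passed (adjusted p = 0.584 to 0.978), and over all genes limma called 0 (0%), with 1678 at an unadjusted p under 0.05. ANKRD1, CCN2 and CCN1 differed by 0.04 (95% interval -0.14 to 0.21), -0.02 (-0.24 to 0.21) and 0.08 (-0.12 to 0.27). TGFBI differed by 0.05 (-0.18 to 0.28) and TGFBR2 by -0.03 (-0.31 to 0.26). AMOTL2 read 7.32, 7.41 and 7.44 in JINB8-treated against 7.24, 7.26 and 7.17 in JK-treated HUVEC, a difference of 0.17 ± 0.09 (95% interval -0.02 to 0.35), and TGFBR1 read 6.68, 6.64 and 6.71 against 6.75, 6.77 and 6.79, a difference of -0.09 ± 0.10 (-0.30 to 0.11). For these 2 genes the ranges did not overlap, yet neither passed. How many of all genes have separate ranges was not counted.

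TGFB2 varied among the treated arrays more than almost any other gene. As deposited it read 9.17, 8.78 and 8.09 in JINB8-treated HUVEC against 7.89, 7.72 and 8.90 in JK-treated HUVEC. Replicate 3 of each group lay on the other group's side. Its SD over the 6 arrays was 0.60, larger than that of 99.7% of genes and against a median of 0.12. The difference was 0.51 ± 0.28 (95% interval -0.10 to 1.12, adjusted p = 0.626) over all 6 arrays, 1.17 ± 0.14 over replicates 1 and 2 (adjusted p = 0.00113, where 1.63% of all genes were called) and -0.81 for replicate 3 alone. TGFBR2 showed the same split with the opposite sign, at -0.03 over all arrays, -0.28 ± 0.11 over replicates 1 and 2 (adjusted p = 0.281) and 0.48 for replicate 3, and TGFB1 gave 0.17, 0.32 ± 0.12 (adjusted p = 0.241) and -0.11. Since those 2 arrays were picked with the values in view, the call on replicates 1 and 2 describes 4 arrays and is no independent test.

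**Figure D4:**
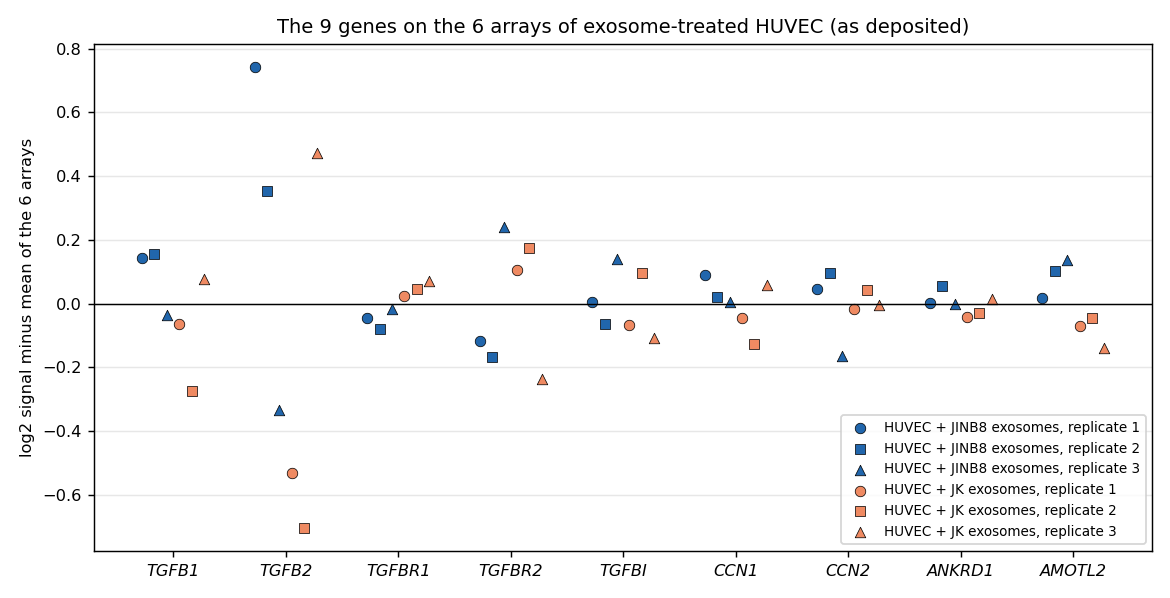
Deviation of each of the 6 exosome-treated HUVEC arrays from their mean (vertical axis, log2 signal) for the 9 genes, coloured by exosome source and shaped by replicate. TGFB2 spreads from -0.70 to 0.74, with replicate 3 of each source (triangles) on the other source's side, and ANKRD1 spreads from -0.04 to 0.05.

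In the RNA of the exosomes themselves the 9 genes read lower than in HUVEC as deposited. TGFB1, TGFB2 and TGFBR1 lay among the dimmer genes, at percentiles of 24.5 to 31.9, 18.5 to 22.2 and 19.97 to 25.8 of all genes over the 6 exosome arrays. AMOTL2 at 75.3 to 81.8, TGFBR2 at 65.0 to 77.8 and CCN2 at 66.3 to 75.2 lay above the middle. The percentiles of TGFBI (51.3 to 70.4), CCN1 (45.7 to 49.1) and ANKRD1 (35.7 to 44.5) were in between. In treated HUVEC AMOTL2 stood at 74.0 to 77.9 and TGFBI at 59.1 to 63.2, so by percentile these 2 genes overlapped with exosome RNA. The files hold no detection calls, so a percentile is a place in the order and not a sign of presence, and 2 probesets of different genes may differ in brightness at like RNA levels.

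Between JINB8 and JK exosome RNA none of the 9 genes passed, where limma called 0.679% of all genes. TGFBR2 came nearest. It read 5.84, 5.95 and 5.97 in JINB8 exosome RNA against 5.62, 5.65 and 5.69 in JK exosome RNA, and these ranges do not overlap. The difference was 0.27 ± 0.07 (95% interval 0.11 to 0.43), with an adjusted p of 0.196. The other 8 genes differed by -0.04 to 0.05, with SEs of 0.07 to 0.12 and overlapping ranges. Separate ranges were not counted over all genes here either.

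Against exosome-treated HUVEC, all 9 genes were lower in exosome RNA as deposited, where limma called 94.9% of genes (45.3% higher and 49.7% lower). The distance was widest for the YAP targets that HUVEC hold at the top of the array. ANKRD1 read 5.05, 4.89 and 4.76 in JINB8 and 4.95, 5.05 and 4.83 in JK exosome RNA, against 12.02, 12.07 and 12.02 in JINB8-treated and 11.98, 11.99 and 12.03 in JK-treated HUVEC, a log2 change of -7.10 ± 0.06 (adjusted p = 3.3e-21). CCN2 changed by -6.08 ± 0.06 (adjusted p = 1.37e-20), CCN1 by -5.57 ± 0.05 (adjusted p = 5.1e-21) and TGFBR2 by -5.11 ± 0.08 (adjusted p = 9.05e-19). TGFB2 changed by -4.21 ± 0.18, TGFB1 by -4.17 ± 0.07 and TGFBR1 by -2.41 ± 0.05. The TGFB2 change was -4.18 ± 0.08 without replicate 3 of both treated groups. These 7 genes stayed lower after quantile normalization and after median centring, with changes of -6.68 to -2.00.

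TGFBI and AMOTL2 were the exceptions in size. TGFBI read 5.71, 5.55 and 5.53 in JINB8 and 5.70, 5.24 and 5.69 in JK exosome RNA, against 6.29, 6.22 and 6.42 in JINB8-treated and 6.22, 6.38 and 6.17 in JK-treated HUVEC. AMOTL2 read 5.94, 6.07 and 6.07 in JINB8 and 5.90, 6.06 and 6.04 in JK exosome RNA, against 7.32, 7.41 and 7.44 in JINB8-treated and 7.24, 7.26 and 7.17 in JK-treated HUVEC. The ranges are separate, yet the changes of -0.71 ± 0.08 and -1.29 ± 0.05 as deposited became 0.14 ± 0.12 (adjusted p = 0.254) and 0.19 ± 0.07 (adjusted p = 0.0198) after quantile normalization over the 12 arrays, where 92.7% of genes were called, so no direction is given for these 2. The values of exosome arrays spread less (SD over all probesets 1.55 in JINB8 and 1.52 in JK exosome RNA, against 2.20 in both treated HUVEC groups). Quantile normalization, run here on the genes, evens out such a difference in spread.

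As deposited the order of levels was alike for the 9 genes, with both exosome RNA groups lowest, both treated HUVEC groups next and untreated HUVEC highest. The place of untreated HUVEC includes the shift of all genes, whose median change was -1.71 with JINB8 and -1.68 with JK exosomes. Exosome RNA was called lower than treated HUVEC for 49.7% of all genes. The share of all genes with the full order was not counted. JINB8 and JK exosome RNA overlapped in range for 8 genes, TGFBR2 being the exception. JINB8-treated and JK-treated HUVEC overlapped for 7 genes, TGFBR1 and AMOTL2 being the exceptions. The share of all genes with separate ranges was not counted, so these counts describe the members and single out none of them.

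Genes around the ligands and receptors were counted from lists written with earlier results of these data known and without the 9 members. The lists share genes, which are counted in each. LTBP2 is in the latency and TGF-beta target lists, and SMAD7, SKIL and PMEPA1 are in the SMAD and TGF-beta target lists. LATS2 and PTPN14 are in the Hippo and YAP target lists. Of 20 genes for co-receptors, related receptors and latency, 3 rose and 10 fell with JINB8 exosomes (median -0.28, against 0.02 over all genes) and 3 rose and 11 fell with JK exosomes (median -0.38), on the quantile scale, where 49.3% and 48.6% of all genes were called. After median centring 8 were higher and 8 lower with JINB8 exosomes and 7 and 7 with JK exosomes (medians -0.0029 and -0.21, against 0.13 and 0.10 over all genes). On that scale more of all genes were called higher than lower, and the list medians stayed below those of all genes. TGFBR3, the co-receptor betaglycan, rose by 1.92 ± 0.13 (adjusted p = 8.53e-07) and 1.58 ± 0.13 (adjusted p = 3.59e-06). As deposited it was 0.19 and -0.16 while the median gene was -1.71 and -1.68. ITGB8 and ITGAV, the chains of an integrin that releases latent TGF-beta, fell, with changes of -1.62 and -0.92 with JINB8 exosomes and -1.91 and -0.99 with JK exosomes. LTBP2, a matrix protein of the latent TGF-beta binding family, fell as well (-1.44 and -1.41). These 3 decreases kept their sign on the deposited and median-centred values.

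Of 15 SMAD mediators and regulators, 5 rose and 5 fell with JINB8 exosomes (median -0.09) and 4 rose and 7 fell with JK exosomes (median -0.01), where 49.3% and 48.6% of all genes were called. SMAD3, which carries the receptor signal, fell (-0.82 ± 0.11 with JINB8 and -0.85 ± 0.11 with JK exosomes). SMAD4, the common partner, rose (0.54 ± 0.07 and 0.47 ± 0.07). SKI, a repressor of SMAD complexes, fell (-0.56 and -0.63). SMAD4 was lower as deposited, at -0.94 and -1.03, which is less than the median shift, and after median centring 9 genes of the list were higher and 3 lower with JINB8 exosomes and 8 and 5 with JK exosomes (medians 0.34 and 0.30).

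Of 22 measured TGF-beta target genes, 1 rose and 16 fell with JINB8 exosomes (median -0.57, against 0.02 over all genes) and 1 rose and 17 fell with JK exosomes (median -0.53), where 49.3% and 48.6% of all genes were called. After median centring 4 were higher and 11 lower with JINB8 exosomes and 4 and 12 with JK exosomes (medians -0.34 and -0.45, against 0.13 and 0.10 over all genes). TAGLN, the smooth muscle actin-binding protein transgelin, fell (adjusted p = 2.13e-10 with JINB8 and 1.38e-10 with JK exosomes). As deposited it read 3.83, 3.89 and 3.90 in JINB8-treated and 3.79, 3.92 and 3.65 in JK-treated HUVEC, against 10.66, 10.42 and 10.27 in untreated HUVEC. The treated values are below those of TAGLN in exosome RNA (4.76 to 4.99) and between those of the T cell genes CD3E (3.15 to 3.41) and LCK (4.13 to 4.58) on the same arrays. With no detection calls to set a background, the size of this decrease is not given. TPM1, a tropomyosin, fell (-1.35 and -1.30), and so did COL4A1, a basement membrane collagen chain (-1.86 and -1.77). Of 14 mural and fibroblast markers, which share ACTA2, COL1A1 and COL1A2 with this list, 4 rose and 3 fell in each treatment, and their median percentile per array was 43.8 to 44.9 with JINB8 exosomes, 42.9 to 45.6 with JK exosomes and 42.6 to 50.2 in untreated cells. Of 12 endothelial markers 3 rose and 3 fell with JINB8 exosomes and 2 rose and 2 fell with JK exosomes. The part of other cells in these list counts was not tested.

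Of 25 Hippo pathway and YAP partner genes, 6 rose and 7 fell with JINB8 exosomes (median -0.06) and 6 rose and 8 fell with JK exosomes (median -0.04), where 49.3% and 48.6% of all genes were called. VGLL3, a TEAD cofactor, fell (adjusted p = 2.28e-07 with JINB8 and 1.52e-07 with JK exosomes). As deposited it read 4.40 to 4.87 in treated HUVEC, against 8.67 to 8.94 in untreated HUVEC. The treated values overlap those of the T cell gene LCK (4.13 to 4.58), so the size of this decrease is not given. STK3, a kinase at the head of the Hippo cascade, rose (1.01 ± 0.07 and 0.99 ± 0.07). NF2, the upstream regulator merlin, fell (-0.68 and -0.69). STK3 was lower as deposited, at -0.67 and -0.68, and after median centring 14 genes of the list were higher and 4 lower with JINB8 exosomes and 9 and 4 with JK exosomes (medians 0.26 and 0.17).

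Of 17 further YAP and TAZ target genes, 3 rose and 9 fell with JINB8 exosomes (median -0.28) and 3 rose and 10 fell with JK exosomes (median -0.34), where 49.3% and 48.6% of all genes were called. After median centring 6 were higher and 8 lower with JINB8 exosomes and 5 and 8 with JK exosomes (medians -0.24 and -0.30). IGFBP3, a binding protein of insulin-like growth factors, changed by -0.74 and -0.85, and FJX1 by -0.71 and -0.66. As deposited IGFBP3 read 4.90 to 5.22 in treated HUVEC, below its readings in exosome RNA (6.04 to 6.19). It is dim there, and with no detection calls the size of its change is uncertain. DOCK5 fell as well (adjusted p = 2.39e-05 and 2.1e-05). As deposited it read 4.65 to 4.79 in treated HUVEC, just above the T cell gene LCK (4.13 to 4.58), so the size of its change is not given. CCN1 rose on the quantile scale, where most called genes of this list fell. Without replicate 3 of both treated groups the higher and lower counts with JINB8 exosomes were 4 and 10 in the receptor and latency list, 5 and 5 among SMAD genes, 0 and 16 among TGF-beta targets, 6 and 6 in the Hippo list and 3 and 8 among YAP targets. With JK exosomes they were 3 and 11, 4 and 6, 1 and 15, 5 and 6, and 2 and 7. Of the 4 other CCN genes, 0 rose and 2 fell with JINB8 exosomes and 1 rose and 2 fell with JK exosomes. The 2 that fell were CCN4 and CCN6, which as deposited read 3.63 to 3.99 and 3.41 to 3.67 in treated HUVEC, near the T cell genes, so the size of their change is not given.

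**Figure D5:**
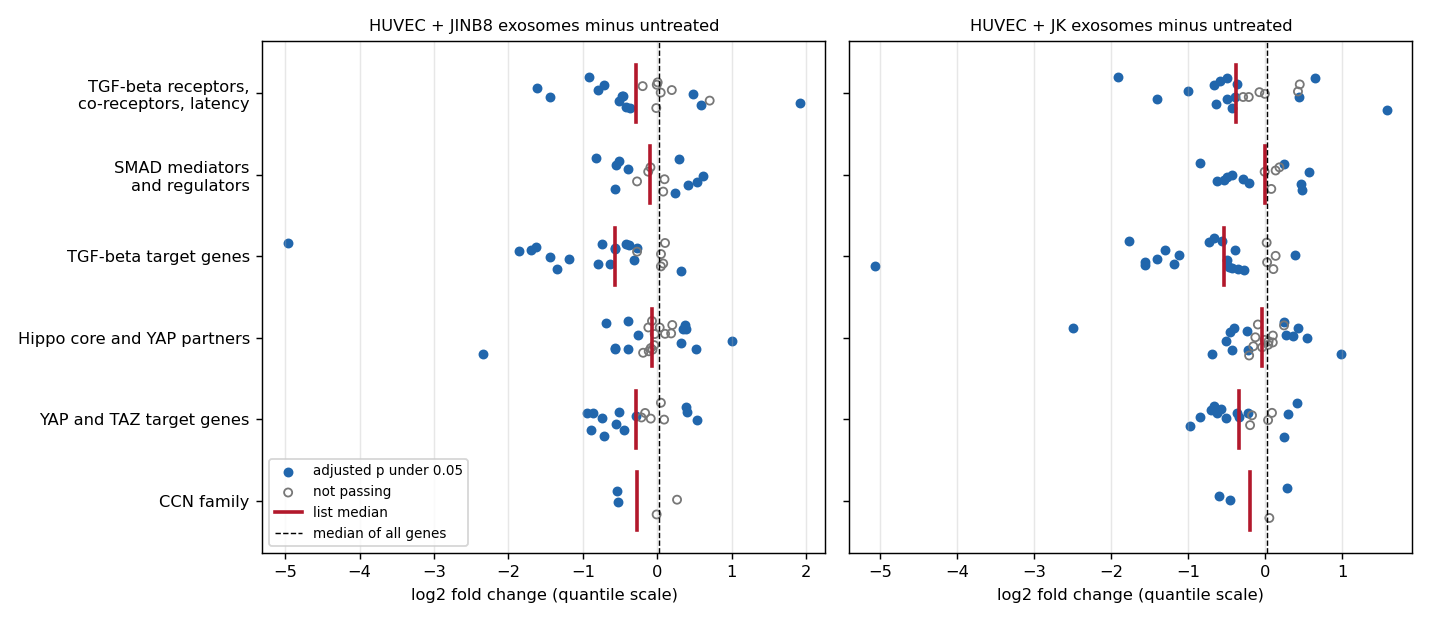
Log2 fold change against untreated HUVEC on the quantile scale (horizontal axis) of the genes of 6 lists without the 9 members, with JINB8 exosomes (left) and JK exosomes (right). Filled points passed an adjusted p of 0.05. The TGF-beta target list has its median at -0.57 and -0.53 and TAGLN farthest left, and the Hippo list has its median near 0.

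None of the genes in these 6 lists passed between JINB8-treated and JK-treated HUVEC over all 6 arrays, or between JINB8 and JK exosome RNA. Without replicate 3 of both treated groups, arrays picked with their values in view, 3 receptor and latency genes and 1 TGF-beta target gene were higher in JINB8-treated than in JK-treated HUVEC, where 1.63% of all genes were called. In exosome RNA against treated HUVEC, CCN4, CCN6, CCN5 and CCN3 were higher, where 45.3% of all genes were. As deposited CCN5 read 7.02 to 7.31 in exosome RNA against 5.93 to 6.16 in treated HUVEC, and CCN3 read 5.61 to 5.94 against 4.98 to 5.29. CCN4 read 5.81 to 6.06 against 3.63 to 3.99, and CCN6 read 5.03 to 5.39 against 3.41 to 3.67. All 4 were also higher after quantile normalization and median centring. The CCN4 and CCN6 readings in treated HUVEC are near those of the T cell genes there, and no detection calls set a background. A higher reading is a place in the order and not a sign that exosomes carry these RNAs. Of the 14 mural and fibroblast markers 9 were higher in exosome RNA as well (median 0.81). In the 5 other lists 1 to 5 genes were higher and 14 to 21 lower.

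The genes whose pattern over the 15 arrays was most like that of each member, by Pearson correlation after quantile normalization over all arrays, mostly separate HUVEC from exosome RNA as the members do. For TGFB2 they were ADAMTS6 and GULP1 (r of 0.998 and 0.996) and for TGFBI SPRY4 and NCKAP5 (0.961 and 0.958). VCL and RAB23 were most like TGFBR1 (both 0.998), PTPRB and VPS13C most like CCN1 (0.9996 and 0.9995) and AIDA and CAMK2D most like ANKRD1 (0.9995 and 0.9994). LYSMD3 and SECISBP2 were most like TGFB1 (both 0.9988) and CCNG1 and ATXN10 most like TGFBR2 (both 0.9972). SC5D and RAP1A were most like CCN2 (both 0.9986). AMOTL2 had the lowest likeness, with MAGEB18 and GADD45B at 0.899 and 0.896. The 5 groups hold few distinct levels, so high values are common among genes and are given as a description.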

How the data were processed

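RNA of 9 HUVEC and 6 exosome samples was measured on 15 Affymetrix gene arrays. The authors deposited log2 values, as their range shows, made with Affymetrix Expression Console per the submitters' processing notes. Its version, background correction and normalization were not given in the sources used here. Of 33297 probesets, 19460 had 1 gene symbol, 1754 had several and 12083 are unnamed here. A gene was represented by its brightest probeset over the 15 arrays, which gave 18417 genes. Promoter sequence and gene positions are RefSeq's on GRCh38.p14; positions of probes within genes were not analysed.

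limma 3.58.1 (lmFit and eBayes, in R 4.3.3) was fitted across all genes with Benjamini-Hochberg adjustment and a threshold of 0.05. Comparisons with untreated HUVEC used values quantile-normalized over the 9 HUVEC arrays, and the others used deposited values. Errors on changes are limma's standard errors. With 3 against 3 arrays an exact permutation test cannot give a p below 0.1, so none is given. The fitting was tested on simulated data.

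Groups came from the sample titles. The members, lists and scaling were chosen with earlier results of these data known. Besides the 9 members, the text names from each list up to 4 genes with the smallest p among those passing, and for each member the 2 genes most like it. Cell type markers are counted, and values are given only for CD3E and LCK, as a reference for dim readings. CD47 is given as a check of the labels. Alternatives were other scalings, leaving out the 40% dimmest genes, the mean of probesets, a variance trend, array weights, a replicate block, the 6 compared arrays alone and leaving out each array. Leaving out replicate 3 of both treated groups was added after the data were seen. The number of arrays limits the precision.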

Additional observations from a re-analysis of the deposited data

How the results depend on the processing

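Levels against untreated HUVEC rest on the scaling. As deposited 18319 genes were called with JK exosomes (30 higher, 18289 lower) and 18286 with JINB8 exosomes (34 and 18252), against 8950 (4829 and 4121) and 9074 (4791 and 4283) on the quantile scale; median centring gave 6462 higher and 3587 lower with JK and 7025 and 3450 with JINB8 exosomes. The members whose sign turned as deposited were AMOTL2 (-1.36 with JINB8, -1.53 with JK), ANKRD1 with JINB8 (-0.94) and CCN1 (-0.62 with JINB8, -0.70 with JK). Of these, AMOTL2 with JK and ANKRD1 with JINB8 had not passed on the quantile scale. After median centring the sign turned for TGFBR2 (0.45 with JINB8, 0.42 with JK), CCN2 (0.80 and 0.76), ANKRD1 with JK (0.81) and TGFB1 (0.24 with JINB8, 0.0091 with JK). Of these, only TGFB1 with JK had passed on the quantile scale, and TGFB1 did not pass after median centring. In exosome RNA against treated HUVEC, quantile normalization turned the sign of AMOTL2 (0.19) and of TGFBI (0.14, which did not pass). The scaling itself sets these signs, and which one holds was not tested. TGFB2, TGFBR1 and TGFBI kept their direction and call against untreated HUVEC under every alternative run.

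Between JINB8-treated and JK-treated HUVEC, where limma called 0 genes with 1678 at an unadjusted p under 0.05, median centring called 8, leaving out the dimmest 40% called 8, a robust fit with a variance trend 23, array weights 377, and leaving out replicate 3 of both groups 300 (170 higher, 130 lower). Leaving out 1 array called 0 to 3. Between JINB8 and JK exosome RNA 125 genes were called, and 54 to 100 without 1 array, with 54, 59 and 77 without JK replicate 3, JINB8 replicate 3 and JINB8 replicate 2. In exosome RNA against treated HUVEC 17486 genes were called (8337 higher, 9149 lower). Among the genes left without the dimmest 40%, 10578 were called (3011 higher, 7567 lower), so more of the higher than of the lower calls were among the dimmest genes. Quantile normalization gave 9496 higher and 7577 lower. The cause of these changes was not tested. Against untreated HUVEC, leaving out 1 array called 7801 to 8867 genes with JK and 7830 to 9335 with JINB8 exosomes, and 17396 to 17517 in exosome RNA against treated HUVEC.

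Samples of different groups share replicate numbers but not a stated culture or day, and deviations of same-numbered samples correlated at -0.45 to 0.35. With the replicate number as a block 8618 genes were called with JK and 8810 with JINB8 exosomes against untreated HUVEC, 0 between treated HUVEC, 104 between exosome RNAs and 17460 in exosome RNA against treated HUVEC, and no member's call changed. No detection calls were given, so the signal of dim members in exosome RNA has no background to be read against.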
